A study of Mus musculus with 6 samples.

Results

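The genes of glutamate and GABA receptor subunits were followed in cultured neural stem cells and progenitors of adult mice in which the deacetylase SIRT1 was inactive or active. They were taken as a list of 32 subunit genes, and 31 of them were measured by a probe set that GEO's platform annotation pairs with that gene alone, out of 19937 genes measured in this way. Grin1 was not analysed here. Where a gene had several such probe sets, the brightest was used. The 3 Sirt1 inactive cultures came from NestinCre;Sirt1lox/lox mice and the 3 control cultures from Sirt1lox/lox mice. All mice were 8 weeks old and of the 129SV strain, and all carried floxed Sirt1 alleles. Cre under the Nestin promoter, which is active in neural stem and progenitor cells, was carried by the Sirt1 inactive group only, so Cre and the loss of active SIRT1 cannot be told apart. The cells were grown as neurospheres in EGF and bFGF, then plated to attach, and were still dividing when RNA was taken at passage 2. The labels call the samples biological replicates and do not say how many mice each came from. These are cultured populations and not brain tissue, and in such bulk RNA fewer cells of a type and less RNA per cell cannot be told apart.

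Ionotropic glutamate receptors are channels built of 4 subunits and fall into the AMPA, NMDA, kainate and delta families, while metabotropic glutamate receptors act through G proteins. GABA-A receptors are chloride channels of 5 subunits, and GABA-B receptors are G protein-coupled pairs of the Gabbr1 and Gabbr2 products. In the adult neurogenic zones GABA is known to depolarise progenitors and to restrain their division, and both transmitters act on neuroblasts, oligodendrocyte progenitors and astrocytes, so these genes are not restricted to neurons.

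Each array gave log2 values made with RMA, and all differences below are Sirt1 inactive minus control on that log2 scale. Array medians lay between 7.36 and 7.39. Control replicate 3 was the array least like the rest: its values lay a median of 0.117 from the mean of the other 5 arrays, while this distance was 0.0591 to 0.0890 for the others. Sirt1 itself read 8.26, 8.33 and 8.25 in the Sirt1 inactive cultures, against 8.73, 8.78 and 8.55 in control, a difference of -0.41 (SE 0.08) with groups that did not overlap. It did not pass the limma test over all probe sets (adjusted p = 0.959). Nes and Sox2, defining genes of neural stem cells, were bright in both groups, with means of 11.64 in the Sirt1 inactive cultures and 11.64 in control for Nes, and of 11.63 and 11.70 in the same order for Sox2. The RMA scale has no true zero, so whether a dim gene is expressed cannot be read from it.

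Receptor subunit genes had lower values without active SIRT1 in most cases, but none passed the test. Of the 31 measured subunits, 27 differed by less than 0 and 4 by more than 0, against 60.1% below 0 among all 22961 probe sets tested. With array medians subtracted, 25 of 31 subunits were below 0, against 48.9% of all probe sets. The median difference was -0.14 for the subunits and -0.02 for all probe sets. No subunit passed a Benjamini-Hochberg adjusted p of 0.05 in limma, and neither did any other probe set (0.0% of all). At an unadjusted p under 0.05 there were 3 subunits, Grin2a, Grik4 and Gabrb2, all with lower values, which is 9.68% of the subunits, against 3.61% of all probe sets in either direction and 2.63% with lower values. Groups without overlap were seen for 2 subunits, Grik4 and Gabrb2, both lower. That is 6.45% of the subunits, against 9.33% of all probe sets in either direction and 6.71% with lower values. Differences of -0.25 or below were seen for 11 subunits, against 2.3% of all probe sets, and differences of 0.25 or above for none of the subunits, against 1.8% of all probe sets. The median SE was 0.167 for the subunits and 0.0802 for all probe sets, so the subunits reach a fixed size more easily.

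How far these counts rest on single arrays was read from the fits that left 1 array out. Without control replicate 3, 20 of 31 subunits were below 0 and the median was -0.07, against 53.7% of all probe sets below 0, and 3 subunits had an unadjusted p under 0.05, against 2.81% of all probe sets. The median was -0.07 without Sirt1 inactive replicate 2 too, and -0.23 without Sirt1 inactive replicate 3. Dropping Sirt1 inactive replicate 1 or 2 took the 3 subunits at an unadjusted p under 0.05 to 0. Over all 22961 probe sets, 817 and 456 had such a p in these fits, against 830 with every array kept. Dropping control replicate 1 gave 7 subunits and 1453 probe sets, so the count rose over the whole array as well. The fit lacking Sirt1 inactive replicate 3 also gave 7 subunits, but 620 probe sets. With control replicate 2 dropped there were 4 subunits and 1121 probe sets, and Gabbr1 was among these subunits with higher values (0.28).

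The labels number the replicates but do not say that a Sirt1 inactive and a control culture of the same number belong together. The pairing used here follows the numbers in the sample titles. Arrays with the same number deviated together from their group means, so the ground for using it comes from these same arrays. With the replicate number as a block, 7 subunits had an unadjusted p under 0.05, which is 22.6% of them, against 7.58% of all probe sets. All 7 had lower values, as did 1166 of the 1741 probe sets at such a p, or 5.08% of all probe sets. The 7 subunits were Grin2a, Grik1, Grik2, Grik4, Gabra2, Gabrb2 and Gabbr2. None passed after adjustment over all probe sets (limma with the block, adjusted p of 0.51 to 0.656 for these 7 genes, and 0.0% of all probe sets called). An unadjusted p under 0.05 with the block was as frequent in several of the further lists described below. It was found for 6 of 18 receptor auxiliary subunits, 5 of 20 neuron and neuroblast markers and 5 of 12 oligodendrocyte progenitor markers. For astrocyte markers it was 3 of 11, for neural stem cell markers 3 of 10, and for mural and fibroblast markers 2 of 8. Scaffold and clustering genes had 4 of 24, microglia markers 2 of 10, transmitter genes 1 of 14, and the other lists 0. Values were lower in 3 of 3 same-numbered pairs for 10 subunits, against 20.7% of all probe sets, and higher in 3 of 3 pairs for none, against 10.9% of all probe sets.

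**Figure D1:**
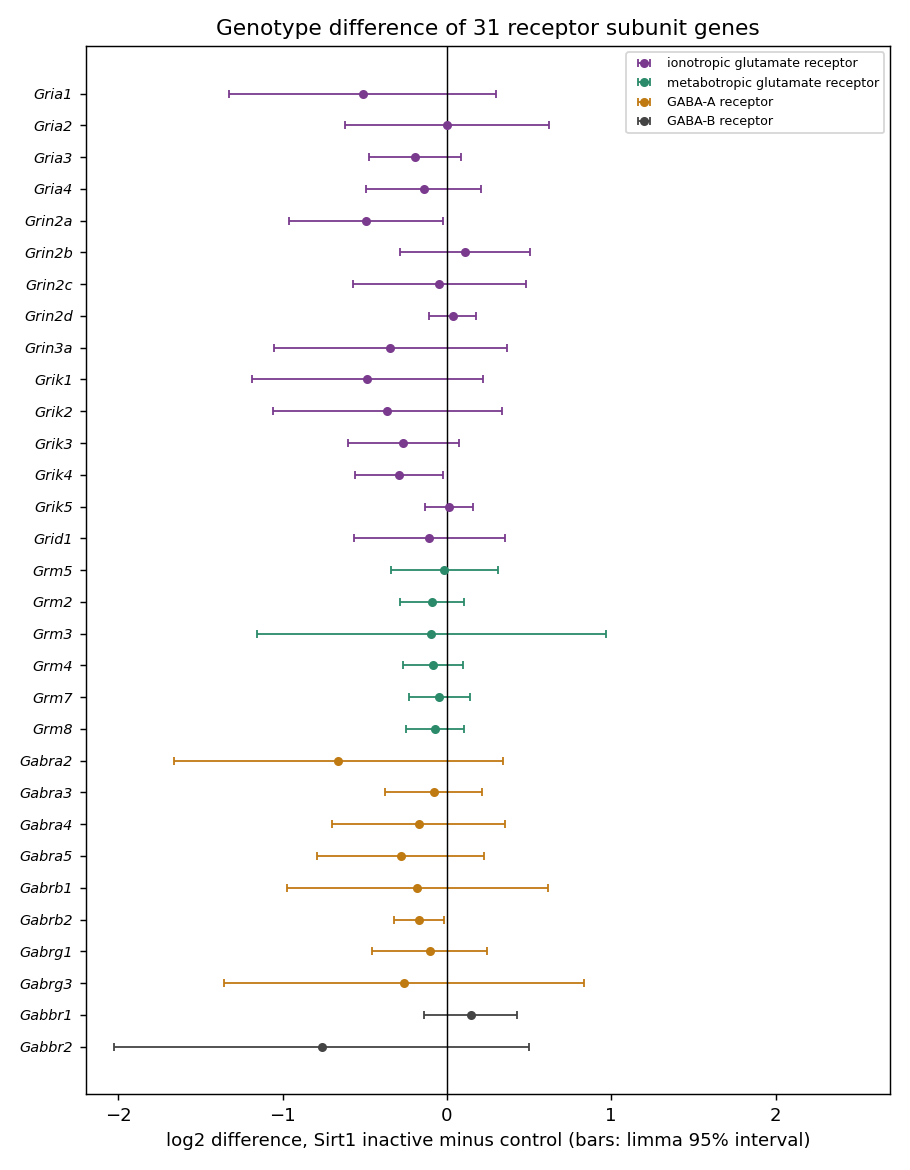
The log2 difference of each measured subunit gene, Sirt1 inactive minus control, on the horizontal axis, with bars for limma's 95% interval over 3 arrays a group and colours for the receptor class. Of the 31 points 27 lie below 0, and the intervals of 3 genes, Grin2a, Grik4 and Gabrb2, do not reach 0.

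Among the AMPA receptor subunits, which carry most fast excitatory transmission, Gria1 had the lowest difference. Gria1 read 8.44, 7.81 and 8.04 in the Sirt1 inactive cultures, against 9.27, 8.72 and 7.84 in control. Control replicates 1 and 2 were the highest arrays and control replicate 3 lay among the Sirt1 inactive arrays, so the groups overlapped. Gria1 differed by -0.51 (SE 0.34, 95% interval -1.32 to 0.30), 0.701 times control, and by -0.90 without control replicate 3. The same-numbered pairs differed by -0.83, -0.91 and 0.20. Gria1 was also the 1 subunit that passed in any of the settings tried: with the replicate block and only numbers 1 and 2 in the fit, it differed by -0.87 (limma, adjusted p = 0.028), in a fit of 2 pairs in which 19 of 22961 probe sets passed, or 0.0827%. In that fit 13 subunits had an unadjusted p under 0.05, all with lower values. That is 41.9% of the subunits, against 8.59% of all probe sets in either direction and 5.7% with lower values.

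The other AMPA subunits differed less. Gria2, whose edited subunit makes the channel impermeable to calcium, read 9.87, 10.01 and 10.63 in the Sirt1 inactive cultures, against 9.67, 10.34 and 10.51 in control, a difference of -0.00076 (SE 0.26). In both groups its highest array was replicate 3, and the groups overlapped throughout. Gria3 read 10.15, 9.86 and 10.31, against 10.40, 10.20 and 10.30 in control, and differed by -0.19 (SE 0.12). Gria4 averaged 8.48 ± 0.30 in the Sirt1 inactive cultures and 8.63 ± 0.13 in control (SD, n = 3 each), a difference of -0.14. Sirt1 inactive replicate 2 was the lowest of the 6 arrays for Gria1, Gria3 and Gria4.

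For the NMDA receptor, a calcium-permeable channel that needs both glutamate and a co-agonist, 5 subunits were measured. Grin2a, which encodes the GluN2A subunit typical of mature synapses, read 6.98, 6.47 and 7.04 in the Sirt1 inactive cultures, against 7.64, 7.02 and 7.30 in control. The lowest array was Sirt1 inactive replicate 2 and the highest control replicate 1, and the groups overlapped because control replicate 2 lay between Sirt1 inactive replicates 1 and 3. The difference was -0.49 (SE 0.20, 95% interval -0.96 to -0.02; unadjusted p = 0.0422, adjusted p = 0.959), or 0.711 times control. The differences within the 3 pairs were -0.67, -0.55 and -0.26, and with the replicate block the unadjusted p was 0.00235. Its probe set was dimmer than the median of those tested.

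Grin3a encodes a glycine-binding subunit that lowers calcium flux through the channel. It read 8.36, 7.89 and 9.10 in the Sirt1 inactive cultures, against 8.47, 8.81 and 9.10 in control, a difference of -0.34 (SE 0.30). The groups overlapped, and the pairs differed by -0.11, -0.92 and 0.00, so pair 2 stood apart from the others. Grin2b, the GluN2B subunit that prevails early in development, differed by 0.11 (SE 0.17), Grin2c by -0.05 (SE 0.22) and Grin2d by 0.03 (SE 0.06). For these 3 genes the groups overlapped and the sign was not the same in all pairs.

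Of the kainate receptor subunits, 4 of 5 had lower values, against 60.1% of all probe sets. Their median difference was -0.29, and -0.17 without control replicate 3. Grik4, a high-affinity subunit that forms channels only together with Grik1 to Grik3 products, read 8.04, 7.85 and 8.08 in the Sirt1 inactive cultures, against 8.21, 8.13 and 8.50 in control. All Sirt1 inactive arrays lay below all control arrays. The difference was -0.29 (SE 0.11, 95% interval -0.56 to -0.03; unadjusted p = 0.0355), 0.817 times control, and p was 0.1 in the two-sided exact permutation test, which cannot go lower with 3 against 3 arrays. Without control replicate 3, which was the highest array, the difference was -0.18.

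Grik1, a subunit that can form channels by itself, read 5.82, 5.79 and 6.52 in the Sirt1 inactive cultures, against 6.08, 6.38 and 7.13 in control. Replicate 3 was the highest array of each group, and each Sirt1 inactive array was below its same-numbered control. The difference was -0.48 (SE 0.30; unadjusted p = 0.148), with an unadjusted p of 0.00204 with the replicate block, and -0.18 without control replicate 3. The brightness of its probe set was below the lower quartile of those tested. Grik2, which also forms channels alone, read 8.07, 8.54 and 8.68, against 8.17, 8.85 and 9.36 in control. It differed by -0.36 (SE 0.30), with lower values in all 3 pairs and an unadjusted p of 0.0233 with the block, but by -0.08 without control replicate 3.

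Grik3, another subunit that forms channels alone, read 8.53, 8.31 and 8.65 in the Sirt1 inactive cultures, against 8.47, 8.86 and 8.95 in control. Control replicate 1 lay among the Sirt1 inactive arrays, and control replicates 2 and 3 lay above them all. The difference was -0.27 (SE 0.14; unadjusted p = 0.104). Grik5, the other high-affinity subunit, differed least among the kainate subunits. It averaged 9.80 ± 0.07 in the Sirt1 inactive cultures and 9.79 ± 0.04 in control (SD, n = 3 each), a difference of 0.01 (95% interval -0.13 to 0.16). Grid1, the delta receptor subunit that binds cerebellins at synapses, read 9.01, 9.13 and 9.49 in the Sirt1 inactive cultures, against 8.97, 9.30 and 9.68 in control, a difference of -0.11. Replicate 3 was the highest array of Grid1 in both groups, and without control replicate 3 the difference was 0.08.

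The metabotropic glutamate receptors had 6 of 6 values below 0, against 60.1% of all probe sets, and a median of -0.08. None of them had an unadjusted p under 0.05 with or without the block. Leaving out control replicate 3 left 4 of 6 below 0 and a median of -0.03, and over all fits that left 1 array out it was -0.13 to -0.03. Grm5, which signals through phospholipase C and calcium, had the brightest probe set of the subunits against the array, at 11.32, 11.43 and 11.76 in the Sirt1 inactive cultures, against 11.31, 11.59 and 11.67 in control (-0.02, 95% interval -0.34 to 0.31). Grm3, which lowers cAMP and is expressed in astrocytes as well as neurons, read 9.49, 9.78 and 10.26 in the Sirt1 inactive cultures, against 8.89, 10.15 and 10.78 in control. The control arrays alone spanned 1.89 on the log2 scale, from the lowest to the highest of all 6 arrays, with the Sirt1 inactive arrays inside that span. Its difference was -0.10 (SE 0.45), and the pairs differed by 0.60, -0.37 and -0.52, so the sign depended on the pair. Grm2, the other member of that group, differed by -0.09. The group III receptors Grm4, Grm7 and Grm8, which act mainly at presynaptic endings, differed by -0.09, -0.05 and -0.07, with SE of 0.07 to 0.08. The probe sets of Grm7 and Grm8 were below the lower quartile in brightness.

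The 8 measured GABA-A receptor subunits all had lower values, against 60.1% of all probe sets below 0. Their median difference was -0.18, 1 had an unadjusted p under 0.05 in limma, and none passed. Without control replicate 3, 6 of 8 were lower and the median was -0.33, while the fit lacking control replicate 1 gave -0.09 and the paired fit of numbers 1 and 2 gave -0.46. Gabra2, an alpha subunit of synaptic receptors, read 8.73, 8.87 and 10.02 in the Sirt1 inactive cultures, against 9.28, 9.72 and 10.60 in control. Replicate 3 was highest in each group, so the groups overlapped, while each Sirt1 inactive array lay below its same-numbered control, with differences of -0.55, -0.85 and -0.59. The difference was -0.66 (SE 0.43, 95% interval -1.66 to 0.34; unadjusted p = 0.162), or 0.632 times control. With the block its SE was 0.08 and its unadjusted p 2.52e-04, the smallest among the subunits, with an adjusted p of 0.51. In the unblocked fit it was -0.30 once control replicate 3 was left out.

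Gabrb2, a beta subunit common in the adult brain, was the other gene whose groups did not overlap. It read 6.92, 6.92 and 6.98 in the Sirt1 inactive cultures, against 7.07, 7.06 and 7.20 in control, a difference of -0.17 (SE 0.06; unadjusted p = 0.0311) with lower values in 3 of 3 pairs and p = 0.1 in the exact permutation test. Among all leave-one-out fits the difference stayed between -0.20 and -0.13. A pair of further Gabrb2 probe sets, both much dimmer, differed by -0.25 with no overlap (unadjusted p = 0.00591) and by -0.15 with overlap, so the 3 probe sets of the gene shared the sign.

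Gabra4 and Gabrb1, an alpha and a beta subunit, followed another order of arrays. Gabra4 read 9.07, 9.15 and 9.17 in the Sirt1 inactive cultures, against 9.67, 9.50 and 8.73 in control, and Gabrb1 read 8.09, 8.36 and 8.19 in the Sirt1 inactive cultures, against 8.98, 8.67 and 7.53 in control. For both genes control replicates 1 and 2 were the highest arrays and control replicate 3 the lowest of all 6, with the Sirt1 inactive arrays close together between them. The differences were -0.17 (SE 0.22) for Gabra4 and -0.18 (SE 0.34) for Gabrb1, and -0.46 and -0.61 without control replicate 3. Without control replicate 1 instead, they were 0.01 and 0.11. Gabrg3, a gamma subunit, had the same order in control, at 8.75, 7.86 and 8.24 in the Sirt1 inactive cultures, against 9.61, 8.32 and 7.70 in control, with a difference of -0.26 (SE 0.47). It changed sign with the array left out, at -0.68 without control replicate 3 and 0.27 without control replicate 1.

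Gabrg1, a gamma subunit, read 9.88, 10.03 and 10.34 in the Sirt1 inactive cultures, against 10.01, 10.13 and 10.43 in control, with replicate 3 highest in each group as for Gabra2. It was slightly lower in 3 of 3 pairs, and its difference was -0.11 (SE 0.15). Gabra5, an alpha subunit found largely outside synapses, read 7.16, 7.08 and 7.34, against 8.00, 7.12 and 7.30 in control. Control replicate 1 was the highest of the 6 arrays. The difference was -0.28 (SE 0.22), while pairs 2 and 3 differed by -0.04 and 0.04. Gabra3, a further alpha subunit, averaged 6.78 ± 0.02 in the Sirt1 inactive cultures and 6.86 ± 0.26 in control (SD, n = 3 each), a difference of -0.08, and 0.07 without control replicate 3.

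Gabrg1, Gabra2, Gabra4 and Gabrb1 are neighbours on chromosome 5. In the RefSeq promoter table the start site of Gabra4, on the minus strand, lies 387 bases downstream of the first listed start site of Gabrb1, which runs on the plus strand. From these start sites the 2 genes run head to head with overlapping 5' ends. A second listed start site of Gabrb1 lies further off, without such an overlap. The order of the control arrays was not particular to this pair: Gabrg3 on chromosome 7 and Gria1 on chromosome 11 had it too. Gabra2 and Gabrg1, on the minus strand in the same cluster, had the opposite order in control. Whether probes of Gabra4 or Gabrb1 also read the other gene's transcript was not tested. The 250 bases upstream of the start of Gabra2 are shown because it had the smallest p with the block, and those of Gabbr2 because it had the most negative difference and the widest range over arrays of the subunits. They are from RefSeq and written 5′ to 3′ on the gene's strand. Capitals mark matches on either strand to GGGCGG, the GC box, or to GGACAG, part of the RE1 element bound by the repressor REST.

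Gabra2 (GRCm38.p6, chr5:71095850-71096099, minus strand): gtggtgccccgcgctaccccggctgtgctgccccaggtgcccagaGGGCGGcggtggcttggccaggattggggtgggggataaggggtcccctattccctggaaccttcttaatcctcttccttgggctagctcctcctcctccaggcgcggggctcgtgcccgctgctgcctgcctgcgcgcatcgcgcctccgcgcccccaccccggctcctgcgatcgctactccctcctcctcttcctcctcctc
Gabbr2 (GRCm38.p6, chr4:46991715-46991964, minus strand): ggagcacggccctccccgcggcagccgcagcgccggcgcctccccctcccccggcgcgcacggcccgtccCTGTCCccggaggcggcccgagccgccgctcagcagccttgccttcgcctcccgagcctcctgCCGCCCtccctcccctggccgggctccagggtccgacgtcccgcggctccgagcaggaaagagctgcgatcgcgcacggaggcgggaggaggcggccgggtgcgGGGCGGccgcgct

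The Gabra2 stretch held 1 match to GGGCGG and 18 CpG dinucleotides, and the Gabbr2 stretch held 2 matches to GGGCGG, 1 to GGACAG and 37 CpG dinucleotides. RefSeq promoter windows, which run on for some bases past the start, were found for 22 of the 31 subunits, 29 windows in all. GGGCGG was in 51.7% of these windows, against 35.7% of the 32851 windows of all genes. GGACAG was in 34.5%, against 22.2% of all. CAGCACC, the other RE1 part searched, was in 3.45% against 7.14%, TATAAA in 10.3% against 13.6%, and the E-box CAGCTG in 0.0% against 16.3%. All motifs were searched on both strands, GGACAG and CAGCACC can share the letters CAG, and a match describes letters only. Median CpG count per window was 13 for the subunits and 7 for all windows. The median GC content was 61.0% for the subunit windows and 52.7% for all windows, so a motif of G and C alone is met more easily. Genes with several windows were counted more than once.

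The GABA-B receptor pair had differences on opposite sides of 0. Gabbr1, which binds GABA, read 10.35, 10.43 and 10.32 in the Sirt1 inactive cultures, against 10.13, 10.50 and 10.04 in control, a difference of 0.14 (SE 0.12), with overlapping groups. Gabbr2, which couples the pair to G proteins, read 8.20, 7.96 and 9.09 in the Sirt1 inactive cultures, against 8.37, 8.76 and 10.41 in control. Control replicate 3 was far above the other 5 arrays and Sirt1 inactive replicate 3 was the next highest. The difference of -0.76 (SE 0.54, 95% interval -2.03 to 0.50; unadjusted p = 0.197) was the most negative of the subunits, 0.589 times control, but was -0.15 without control replicate 3. The pairs differed by -0.17, -0.80 and -1.32, with an unadjusted p of 0.0131 with the block.

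**Figure D2:**
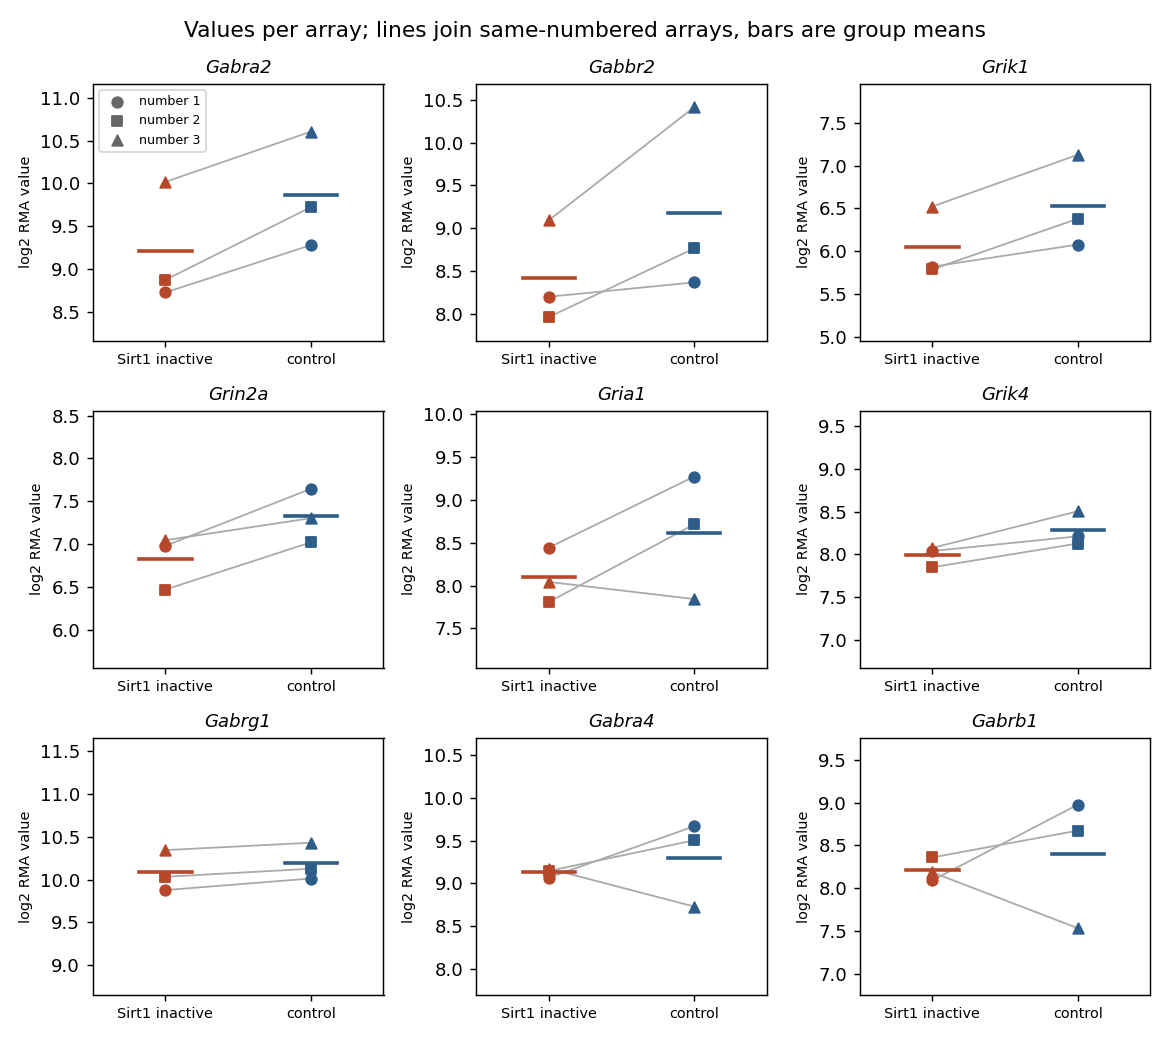
Log2 RMA values of 9 subunit genes in each array, Sirt1 inactive left and control right, on vertical axes that each span 3 log2 units. Marker shapes give the replicate number, grey lines join same-numbered arrays and bars are means of 3 arrays. Gabra2 is lower in all 3 pairs although the groups overlap, while for Gria1, Gabra4 and Gabrb1 the line of number 3 runs against the other lines because control replicate 3 is low.

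The subunit genes varied widely between cultures. A range above 1 over the 6 arrays was seen for 10 of 31 subunits, which is 32.3%, against 2.66% of all probe sets. They were Gria1, Grin2a, Grin3a, Grik1, Grik2, Grm3, Gabra2, Gabrb1, Gabrg3 and Gabbr2, with Gabbr2 widest at 2.45. Median SE of a difference was 0.167 for the subunits and 0.0802 for all probe sets, so differences of the subunits were measured less precisely than those of a typical gene. In brightness, 20 of 31 subunit probe sets were above the median of those tested and 3 below the lower quartile.

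Arrays did not order the subunits in a single way. Control replicate 3 was the highest of the 6 arrays for 16 subunits (51.6%, against 37.2% of all probe sets) and the lowest for 4, Gabra4, Gabrb1, Gabrg3 and Gabbr1 (12.9%, against 17.7%). Sirt1 inactive replicate 2 was the lowest array for 14 subunits (45.2%, against 22.4%). Both arrays of number 3 lay above the other 4 for 11 subunits (35.5%, against 11.6%): Gria2, Gria4, Grin2d, Grin3a, Grik1, Grid1, Grm5, Grm3, Gabra2, Gabrg1 and Gabbr2. Over the 31 subunits the correlation of deviations from the group mean was 0.79, 0.58 and 0.72 for arrays with the same number and -0.70 to -0.05 for arrays with different numbers. These correlations are across genes, which are not independent replicates. Because each group was centred on its own mean, positive correlations for the same number force negative ones among different numbers.

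**Figure D3:**
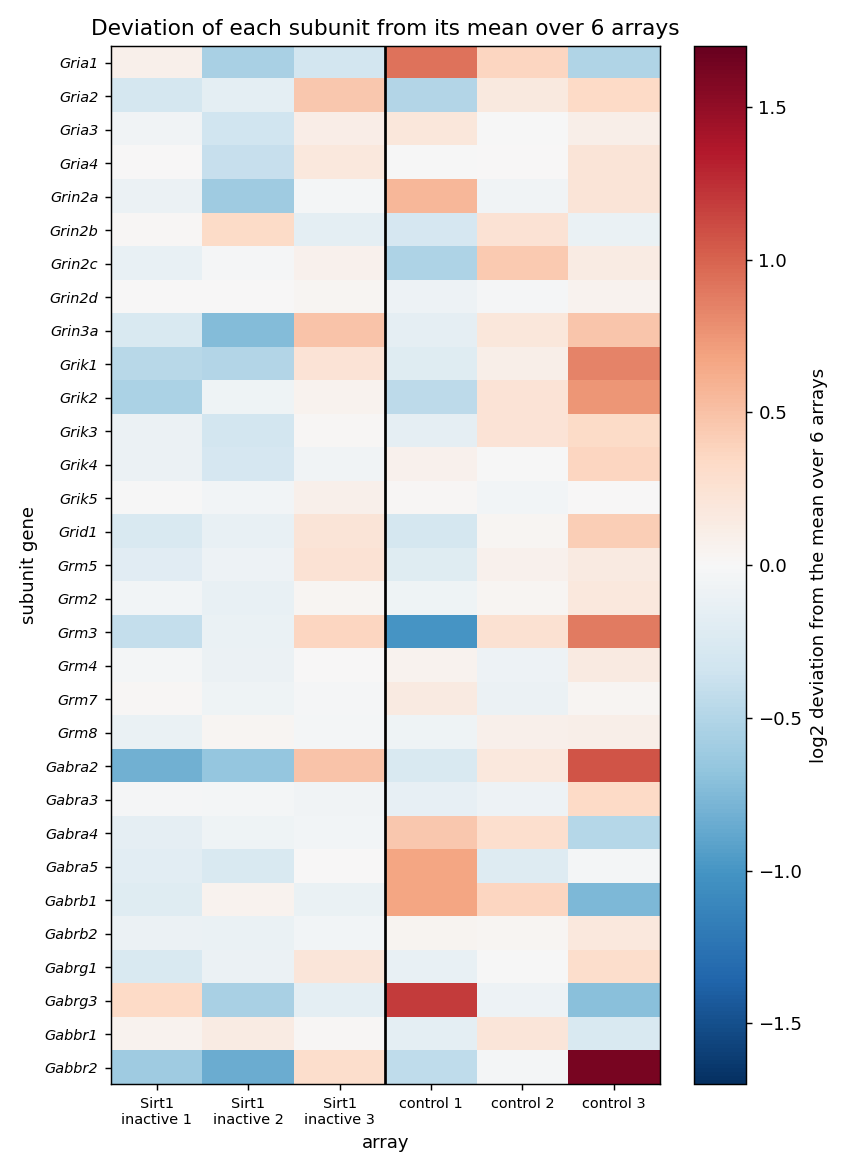
Deviation of each measured subunit gene (rows) from its own mean over the 6 arrays (columns, Sirt1 inactive left of the black line, control right), in log2 units, red for higher and blue for lower. Control replicate 3 is red for Gabbr2, Gabra2, Grm3, Grik1 and Grik2 and blue for Gabrb1, Gabrg3, Gria1 and Gabra4.

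Genes that act with these receptors were read from 4 further lists, in which no gene passed (limma, adjusted p = 0.959 or above). Receptor auxiliary subunits had 13 of 18 values below 0 and a median of -0.11, against 60.1% below 0 and a median of -0.02 for all probe sets. The median was -0.04 without Sirt1 inactive replicate 2 and -0.18 without Sirt1 inactive replicate 3. At an unadjusted p under 0.05 were 2 of the 18, Cacng3, a stargazin-like AMPA receptor partner (-0.36), and Kctd12b (-0.31), against 3.61% of all probe sets. The Cacng3 probe set was dim, with means of 5.38 in the Sirt1 inactive cultures and 5.74 in control. Cacng7, a bright gene of the same family, differed by -0.17, and Kctd16, a GABA-B partner, by -0.16.

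Scaffold and clustering genes had 19 of 24 values below 0 and a median of -0.08, against 60.1% of all probe sets below 0, and 2 had an unadjusted p under 0.05, against 3.61%. With control replicate 3 left out, 16 of 24 were below 0 and the median was -0.03, while it was -0.13 without control replicate 1. Camk2a, the calcium- and calmodulin-dependent kinase of excitatory synapses, read 8.94, 8.80 and 9.03 in the Sirt1 inactive cultures, against 9.21, 9.40 and 9.77 in control, without overlap. Its difference was -0.53 (SE 0.14; unadjusted p = 0.00686), and -0.38 without control replicate 3. Shank3, a scaffold of the postsynaptic density, differed by -0.20 (unadjusted p = 0.0266), gephyrin (Gphn), which clusters GABA-A receptors, by -0.14, and Dlgap4 by -0.11.

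Genes of transmitter synthesis and transport had 7 of 14 values on each side of 0 and a median of -0.01, or 0.02 without control replicate 3, with none at an unadjusted p under 0.05. Slc6a13, a GABA transporter, differed by 0.16, Gad2, which makes GABA, by 0.06, Aldh5a1, of GABA breakdown, by -0.14, and Slc17a6, a vesicular glutamate transporter, by -0.13. Gad1, which makes GABA as well, differed by -0.14, so the 2 genes lay on opposite sides of 0. Of the 10 measured genes for other receptor subunits 8 were below 0, against 60.1% of all probe sets. Their median was -0.06, and none had an unadjusted p under 0.05. This median became -0.10 when Sirt1 inactive replicate 3 was left out, and -0.09 when control replicate 1 was. Among them Grin3b differed by -0.14, Grm6 by -0.13, Gabrr1 by -0.13 and Gabrr2 by -0.14.

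Markers of cell types differed between arrays too. Of all probe sets, 60.1% were below 0 with a median of -0.02, and 53.7% were below 0 without control replicate 3. Neuron and neuroblast markers had 14 of 20 values below 0, a median of -0.17 and a mean marker value of 8.41 to 8.54 in the Sirt1 inactive cultures, against 8.45 to 8.81 in control. Leaving out control replicate 3 left 13 of 20 below 0 and a median of -0.08, and it was -0.10 without Sirt1 inactive replicate 2. At an unadjusted p under 0.05 were 3 of the 20, against 3.61% of all probe sets. Dcx, a microtubule protein of migrating neuroblasts, differed by -0.31 and is 1 of these 3, with Syt1, a calcium sensor of vesicle release, (-0.39), and Gap43, a growth cone protein (-0.31). Snap25, of the fusion machinery, differed by -0.51 and Tubb3, neuronal tubulin, by -0.20. The genes named here were taken for a small unadjusted p or as first list entries. None of the 6 markers above 0 is among them. Without control replicate 3 the differences were -0.17 for Dcx, -0.27 for Syt1, -0.22 for Gap43, -0.27 for Snap25 and -0.07 for Tubb3. In control replicate 3 the mean deviation was 0.26 for this list and 0.21 for the receptor subunits, the highest of the 6 arrays for both. By mean deviation this array was also the highest for scaffold and clustering genes (0.20), auxiliary subunits (0.17) and other receptor subunits (0.11). The same held for endothelial (0.11) and microglia markers (0.07), but not for the remaining lists. In Sirt1 inactive replicates 1 and 2 the mean deviation was -0.13 and -0.12 for the neuronal markers and -0.16 and -0.22 for the subunits, the lowest means for both. By median deviation, control replicate 1 was the lowest array for the neuronal markers, at -0.20, while Sirt1 inactive replicates 1 and 2, at -0.10 and -0.11, were the lowest for the subunits.

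Astrocyte markers had 8 of 11 values above 0, a median of 0.19 and a mean marker value of 10.26 to 10.41 in the Sirt1 inactive cultures, against 9.63 to 10.36 in control. The mean deviation of control replicate 3 was -0.60 for this list, and the list's median difference was -0.002 without that array. At an unadjusted p under 0.05 were 2 of the 11, Atp1b2 and Sox9, which differed in opposite directions, against 3.61% of all probe sets. Gfap, the glial filament gene, differed by 1.06, Atp1b2 by 0.19, Aldoc by 0.27, Sox9 by -0.25 and Aqp4 by 0.56. Without control replicate 3 these differences were 0.29 for Gfap, 0.12 for Atp1b2, 0.13 for Aldoc, -0.16 for Sox9 and -0.11 for Aqp4. Oligodendrocyte progenitor markers had 8 of 12 values below 0 and a median of -0.09, with a mean marker value of 9.20 to 9.34 in the Sirt1 inactive cultures, against 9.15 to 9.21 in control. With control replicate 3 left out, 5 of 12 were below 0 and the median was 0.07, and it was 0.006 in the paired fit of numbers 1 and 2. At an unadjusted p under 0.05 were 5 of the 12, of which 4 had higher values, against 3.61% of all probe sets. Gpr17 (0.75), C1ql1 (0.44), Pdgfra (0.79) and Sox10 (0.28) were these 4, and Vcan (-0.26) was the lower one. Pdgfra differed by 0.42 without control replicate 3. Cspg4 differed by -0.12, and by 0.11 without that array. What part the makeup of the cultures had in the subunit values was not tested.

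The remaining marker lists held no gene that passed. Neural stem cell markers had 6 of 10 values above 0 and a median of 0.01, with mean marker values of 10.01 to 10.11 in the Sirt1 inactive cultures, against 9.88 to 10.05 in control. Myelinating oligodendrocyte markers were below 0 in 10 of 10 cases, with a median of -0.08 and mean values of 8.56 to 8.67 in the Sirt1 inactive cultures, against 8.60 to 8.77 in control, and Mbp differed by -0.16. Leaving out control replicate 3 left 8 of 10 below 0 and a median of -0.16, and it was -0.15 without Sirt1 inactive replicate 1. Microglia markers had 8 of 10 below 0 and a median of -0.05, with means of 6.87 to 6.88 in the Sirt1 inactive cultures, against 6.90 to 6.98 in control. The median was -0.09 to -0.03 when 1 array was left out, and 6 of 10 were below 0 without control replicate 3. Aif1 differed by -0.0013, Itgam by -0.16 and Tmem119, the 1 gene of the list at an unadjusted p under 0.05, by -0.19. Mural and fibroblast markers had 5 of 8 above 0 and a median of 0.04, with means of 8.11 to 8.18 in the Sirt1 inactive cultures, against 7.67 to 8.30 in control. Without control replicate 3, whose mean deviation was -0.43 for this list, 5 of 8 were below 0 and the median was -0.08. Pdgfrb differed by 0.12, Rgs5 by -0.14 and Col1a1, the 1 gene of the list at an unadjusted p under 0.05, by -0.15, and without that array these were -0.05, -0.43 and -0.13. Endothelial markers had 5 of 6 below 0 and a median of -0.08, with means of 6.60 to 6.75 in the Sirt1 inactive cultures, against 6.70 to 6.84 in control, and Pecam1 and Cdh5 differed by -0.08 and -0.15. The list's median was -0.04 without control replicate 3, with 4 of 6 below 0.

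**Figure D4:**
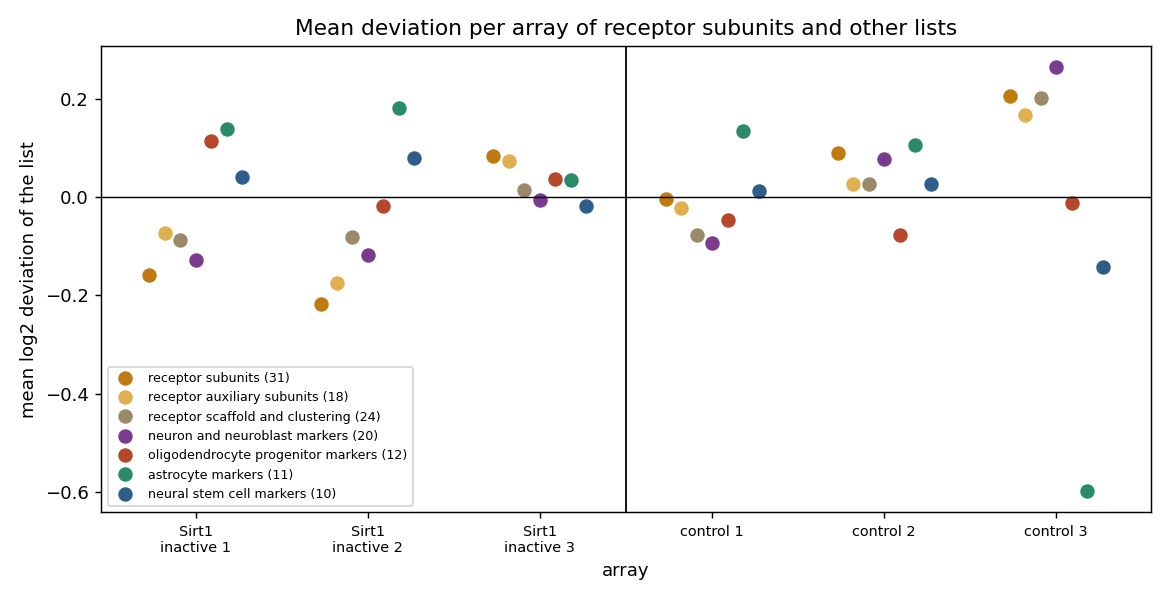
Mean log2 deviation per array, from each gene's mean over the 6 arrays, of the 31 receptor subunits and of 6 other lists, with the number of genes in brackets, Sirt1 inactive left of the line and control right. Receptor subunits and neuron and neuroblast markers are both highest in control replicate 3 (0.21 and 0.26), where astrocyte markers are at -0.60. Receptor auxiliary subunits and scaffold and clustering genes are highest in that array too (0.17 and 0.20).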

How the data were processed

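Expression was measured with Affymetrix whole-transcript arrays of 1 colour, each culture on its own array. The authors deposited log2 values, background-adjusted and normalized by RMA, per the labels and the submitters' processing notes. The RMA version, the annotation and the genome build behind these values were not given in the sources used here. RMA gives arrays nearly 1 distribution and compresses differences of dim probe sets. Of 34760 probe sets, 22961 with at least 1 gene in GEO's platform annotation were tested, 21640 of them with a single gene. Symbols were checked by Entrez identifier against RefSeq's gene table for GRCm38.p6, which held 21553 of these and changed 0 symbols. The table held 0 columns of other samples.

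No further normalization was applied. limma 3.58.1 (lmFit and eBayes, under R 4.3.3) gave Sirt1 inactive minus control from the 6 arrays, two-sided, Benjamini-Hochberg adjusted over all tested probe sets, with a threshold of 0.05. SE and intervals are limma's, and arrays have no read depth, so their number limits the precision. Means are given ± SD. The fit was tested on simulated data with 200 changed probe sets and independent noise for each array, so without shared deviations of same-numbered arrays. At the adjusted threshold it recovered 52.1% of changes of 0.5, 87.6% of changes of 1 and 98.1% of changes of 2. The changed probe sets were drawn from all those tested, whose median SE was 0.0802, against 0.167 for the subunits. Recovery for the subunits themselves was not measured, so these shares cannot be read as theirs. Same-numbered arrays deviated together over all probe sets (correlations of 0.47, 0.36 and 0.27 for numbers 1, 2 and 3, against -0.32 to -0.02 for different numbers); the numbers come from the sample titles. The members, the 12 further lists (153 of 165 entries measured) and the tests were chosen with earlier results of these data known. Besides all members, the genes named are the 4 with the smallest unadjusted p in the lists of receptor partners and of neuron, astrocyte and oligodendrocyte progenitor markers, the first 2 entries of the marker lists where measured, and any other list gene counted at an unadjusted p under 0.05. Gad1 was named in addition, beside Gad2. The narrowing to these lists was made after the values were seen. Alternatives were the replicate block, other scalings, a filter on dim probe sets, all probe sets, averaging the probe sets of each gene, another eBayes prior, array weights and leaving out arrays. Promoter windows are RefSeq's.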

Additional observations from a re-analysis of the deposited data

How the results depend on the processing

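The median difference of the subunits was below 0 in all 15 alternatives (-0.23 to -0.07), and 20 to 28 of 31 subunits were below 0 (18 of 20 without dim probe sets). Over all probe sets the median was -0.02 in the reported fit and 0.002 with array medians subtracted. The 830 probe sets at an unadjusted p under 0.05, of which 604 had lower values, became 753 with 371 lower under that scaling, 1741 with the block, 1972 with the block and no number 3, 312 of 11481 without dim probe sets, 1376 of 34760 over the whole table, and 456 to 1453 when 1 array was left out. No subunit passed in any alternative except Gria1 with the replicate block and both arrays of number 3 left out, where the count was 1 and 13 subunits had an unadjusted p under 0.05. That count, 3 in the reported fit, was 7 with the replicate block, 1 without dim probe sets, where 11 subunits were not tested, and 0 to 7 when 1 array was left out. The block changed no call at the adjusted threshold.

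The sign turned for subunits with small or unstable differences, none of which had passed. With array weights it turned for Gabbr1 (-0.0221), Gabrg1 (0.0131), Gria2 (0.0679), Grid1 (0.0047), Grin2b (-0.11), Grm4 (0.00123), Grm5 (0.029), Grm7 (0.0205). With array medians subtracted it turned for Gria2 (0.0238), Grm5 (0.00703), and in the paired fit without number 3 for Gabra3 (0.080), Grik5 (-0.0153), Grm3 (0.12). Leaving out 1 array gave ranges across 0 for Gabra3 -0.17 to 0.0687, Gabra4 -0.46 to 0.0117, Gabrb1 -0.61 to 0.11, Gabrg1 -0.23 to 0.0151, Gabrg3 -0.68 to 0.27, Gria2 -0.25 to 0.17, Gria4 -0.27 to 0.0217, Grid1 -0.28 to 0.0751, Grik5 -0.0239 to 0.0412, Grin2b -0.0237 to 0.26, Grin2c -0.32 to 0.17, Grm3 -0.62 to 0.32, Grm5 -0.14 to 0.0729, Grm7 -0.11 to 0.0158. The cause was not tested.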
